A study of Homo sapiens with 4 samples.

Results

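The genes described here are 5 human genes for the 7SL and 7SK RNAs: RN7SL1, RN7SL2, RN7SL4P, RN7SL5P and RN7SK. They were chosen because RN7SL genes had more counts in both libraries of 1 genotype than in both of the other, so the difference between genotypes is described for them without a test. An identifier in the count tables was matched to 4 of the 5, out of 57820 genes in all, and RN7SL1 was not matched. Counts were present for 3 of them (RN7SL2, RN7SL4P and RN7SK), and these also passed the filter on low counts, which left 15136 genes. RN7SL5P had no count in any library. The filter asked for a CPM above 0.5 in at least 2 libraries, where CPM is a count scaled to a common library total.

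RNA-seq had been performed on untreated HAP1 cells, a human cell line that is nearly haploid and derives from a chronic myeloid leukaemia line. Libraries dKO 1 and dKO 2 came from cells without RING1A and RING1B, the catalytic subunits of Polycomb repressive complex 1, which ubiquitinates histone H2A. Libraries tKO 1 and tKO 2 came from cells that also lacked BAP1, the enzyme that removes this ubiquitin, so both groups lacked the ubiquitin ligases and differed in BAP1. Per the methods of the study the replicates were independent biological ones, BAP1 and RING1A had been interrupted with an inserted STOP cassette in selected clones, and the RING1B mutant line was obtained commercially, so effects of a clone and of the genotype cannot be told apart.

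7SL RNA is the scaffold of the signal recognition particle, which binds the signal peptide of a growing protein and brings its ribosome to the endoplasmic reticulum. 7SK RNA holds the kinase P-TEFb in an inactive particle and so limits the release of paused RNA polymerase II. Both RNAs are made by RNA polymerase III, are abundant in every human cell and carry no long poly(A) tail. The libraries had been prepared by poly(A) selection, so the counts are those of molecules that passed this selection and do not give the amount of 7SL or 7SK RNA in the cell. In bulk RNA, fewer cells with an RNA and less RNA per cell cannot be told apart.

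The counts came from reads that mapped to 1 place in the genome, and the differences between copies of a gene decide which reads can do so. The genes were therefore compared in GRCh37. RN7SL2 lies at chr14:50329271-50329567 on the minus strand, and its neighbour RN7SL3, a 7SL gene that is not among the chosen ones, at chr14:50320336-50320632 on the same strand. RN7SL4P lies at chr3:15780022-15780315 on the plus strand, within the gene ANKRD28 on the opposite strand. RN7SL5P lies at chr9:9442060-9442347 on the plus strand, within PTPRD on the opposite strand. RN7SK lies at chr6:52860418-52860748 on the plus strand. Its last 168 bases, chr6:52860581-52860748, are covered by the longest run of consecutive 100-base windows that match the genome once, and are shown 5′ to 3′ as an example of sequence to which reads of RN7SK could be assigned.
RN7SK: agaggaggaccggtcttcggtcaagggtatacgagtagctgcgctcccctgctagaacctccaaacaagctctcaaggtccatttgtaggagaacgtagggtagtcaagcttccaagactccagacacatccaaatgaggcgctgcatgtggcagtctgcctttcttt

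The pseudogenes RN7SL4P and RN7SL5P were close to RN7SL2 at the 5′ end and differed from it at the 3′ end, whereas RN7SL3 was close throughout. RN7SL3 was identical to RN7SL2 at 96.3% of aligned positions, with 11 mismatches, 6 in the first 230 bases and 5 in the remaining 67. RN7SL4P shared 86.8% and RN7SL5P 88.0% of aligned positions with RN7SL2. In RN7SL4P, 3 of the first 230 bases differed from RN7SL2 and 27 of the remaining 64. In RN7SL5P, 4 of the first 230 bases differed and 21 of the remaining 58.

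A search of GRCh37 with RN7SL2 found 85 copies that covered at least 85% of it, RN7SL2 included. RN7SL4P and RN7SL5P, close to RN7SL2 in the first 230 bases, were not among the 85, so copies of a part of RN7SL2 can be missed. Of the 85, only 3 were over 95% identical, all on chromosome 14, and the next reached 89.8%. Beside RN7SL2 and RN7SL3 the third was an unannotated copy on the plus strand, 98.7% identical to RN7SL2, from which it differed by 4 substitutions. The annotation used here places no small RNA gene there, and the copy lies within the span of RPS29, a ribosomal protein gene on the opposite strand. In the RefSeq gene order, RN7SL1 also stands near RPS29 on this chromosome, between RPL32P29 and LRR1. Whether the copy is RN7SL1 was not settled, and no identifier in the count tables was paired with RN7SL1.

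Each gene was divided into all overlapping windows of 100 bases, the read length given in the study's methods, and a window was called unique if it had 1 exact match in GRCh37. For RN7SL2, 33 of 198 windows were unique (16.7%), and these began at bases 1 to 10 and 176 to 198. RN7SL3 had 174 unique windows of 198 (87.9%). RN7SL4P had 102 of 195 (52.3%), RN7SL5P 79 of 189 (41.8%) and RN7SK 113 of 232 (48.7%). The plot of unique windows shows that the middle of RN7SL2 could give no unique 100-base match, whereas the 3′ part of RN7SL4P and of RN7SK could. The counts of RN7SL2 thus rest on a smaller part of the gene than those of the other members. Single reads of 100 bases were considered, and paired ends can place more fragments than these shares show.

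**Figure D1:**
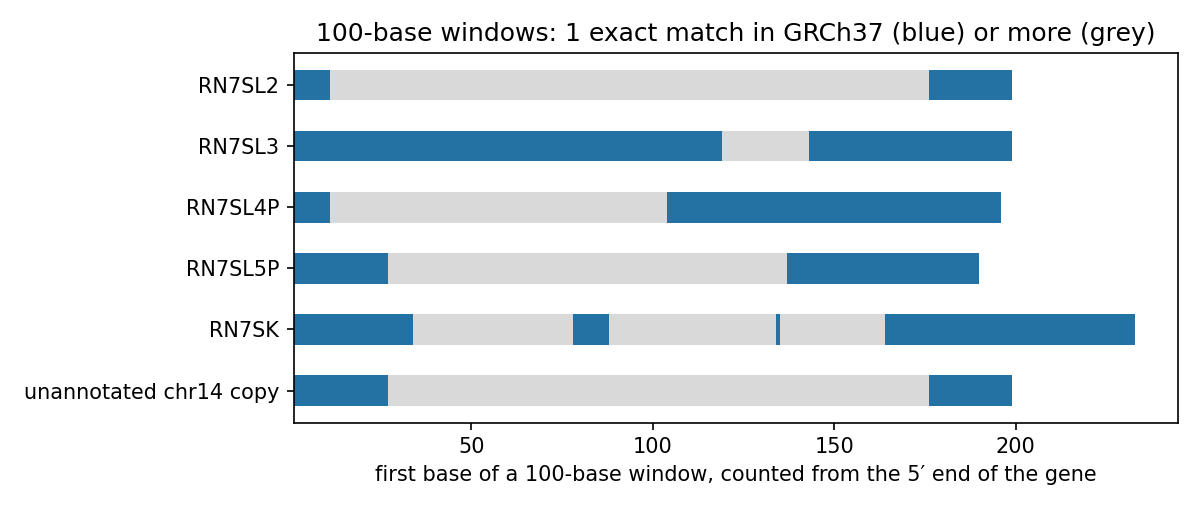
Windows of 100 bases along each gene, by the position of their first base (horizontal axis, bases from the 5′ end), for the 4 matched members, RN7SL3 and the unannotated copy on chromosome 14. Blue windows had 1 exact match in GRCh37 and grey windows had more, and the unique share ran from 16.7% in RN7SL2 to 87.9% in RN7SL3.

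The 4 libraries held 16054590 to 18455410 gene counts each, and 14.3% to 14.8% of reads had mapped to several places. The counts of BAP1 were 2046 and 2010 in dKO cells and fell to 158 and 107 with the cassette, a log2 fold change of -3.77 (adjusted p = 0.0065, limma). Such a cassette leaves RNA made before it countable. RNF2, which encodes RING1B, had 1421, 1561, 1262 and 1102 counts in dKO 1, dKO 2, tKO 1 and tKO 2, and RING1, which encodes RING1A, had 12, 17, 12 and 13. The loss of RING1B was thus not visible in RNF2 counts, and no library with intact genes was analysed here for comparison. Of 6 blood lineage markers, SPI1, GATA1, HBG1 and MPO had no count in any library, and the 6 summed to 0 to 3 counts per library. HAP1 cells have no positive marker list of their own here.

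RN7SL2, the more abundant of the 7SL genes with counts, was higher in both tKO libraries. Its counts were 105 and 118 in dKO 1 and dKO 2, and 261 and 465 in tKO 1 and tKO 2. Scaled by TMM, which sets library sizes by the bulk of genes, these were 5.73, 6.51, 16.1 and 28.8 CPM. Both tKO values lay above both dKO values, and the tKO libraries also differed from each other.

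The group means of RN7SL2 were 6.12 ± 0.551 CPM in dKO and 22.4 ± 8.98 CPM in tKO (SD, n = 2 each). The log2 fold change, on the scale of log2-CPM with a prior count of 2, was 1.80 with a standard error of 0.29, or 3.48-fold. By library it was 1.38 for tKO 1 and 2.22 for tKO 2 against the dKO mean. Counting error alone left the dKO libraries within range of each other, with a CPM ratio of dKO 2 to dKO 1 of 1.14 (exact 95% interval 0.866 to 1.49). The ratio of tKO 2 to tKO 1 was 1.79 (1.53 to 2.09), outside the counting error. The lowest ratio to the dKO libraries together was that of tKO 1, at 2.63 (2.19 to 3.16). These intervals cover counting error only and not the spread between cultures. RN7SL genes were chosen on the difference between genotypes, so the interval against the dKO libraries is not a test of it.

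RN7SL4P, annotated as a 7SL pseudogene, was also higher in both tKO libraries. In dKO 1 and dKO 2 it had 21 and 19 counts, and in tKO 1 and tKO 2 it had 68 and 89. These were 1.15, 1.05, 4.19 and 5.51 CPM, and the groups did not overlap. The means were 1.10 ± 0.0693 CPM in dKO and 4.85 ± 0.933 CPM in tKO (SD, n = 2 each), with a log2 fold change of 2.02 (SE 0.29), or 4.06-fold.

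The 2 tKO libraries did not differ beyond counting error for RN7SL4P. The CPM ratio of tKO 2 to tKO 1 was 1.31 (0.948 to 1.83). This interval overlapped that of RN7SL2 (1.53 to 2.09), which had more counts. The ratio to the dKO libraries together was 3.82 (2.55 to 5.79) for tKO 1 and 5.02 (3.42 to 7.49) for tKO 2. As for RN7SL2, the intervals against the dKO libraries are not a test of the difference between genotypes. By library the log2 ratio to the dKO mean was 1.83 and 2.21.

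RN7SK was higher in only 1 of the tKO libraries. In dKO 1 and dKO 2 it had 25 and 26 counts (1.36 and 1.43 CPM), in tKO 1 only 20 (1.23 CPM), and in tKO 2 it reached 97 (6.004 CPM). The tKO 1 value lay below both dKO values and the tKO 2 value far above them, so the groups overlapped. The means were 1.40 ± 0.0494 CPM in dKO and 3.62 ± 3.37 CPM in tKO (SD, n = 2 each), and the log2 fold change of 0.92 had a standard error of 0.66. It was set by tKO 2 alone: the log2 ratio to the dKO mean was 2.01 for tKO 2 and -0.17 for tKO 1. The CPM ratio to the dKO libraries together was 0.881 (0.497 to 1.50) for tKO 1 and 4.29 (3.03 to 6.15) for tKO 2.

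RN7SL5P had 0 counts in each library on either strand. At these depths a count of 0 allows up to 0.163 to 0.187 CPM per library (3 counts), so a level below this was not detectable. RN7SL3 also had 0 counts in each library, although most of its windows were unique, and RN7SL1 has no value for lack of a matched identifier.

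Both tKO libraries lay above both dKO libraries for 2 of the 3 members with counts. The same held for 15.8% of all tested genes, while 15.9% lay below in both, and 0.727% of them also had a log2 fold change above 1, as RN7SL2 and RN7SL4P did. Because the members were chosen on this contrast, nothing is read from these counts. In the fit over all genes (limma, called where the adjusted p was below 0.05 and the log2 fold change exceeded 1 in size), 0.0132% of tested genes were called. Ranked from the highest log2 fold change, RN7SL4P was number 21, RN7SL2 number 25 and RN7SK number 138 of 15136. All were of low level: the mean log2-CPM of RN7SL2 stood at percentile 34.2 of the tested genes, that of RN7SL4P at 17.4 and that of RN7SK at 15.9.

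**Figure D2:**
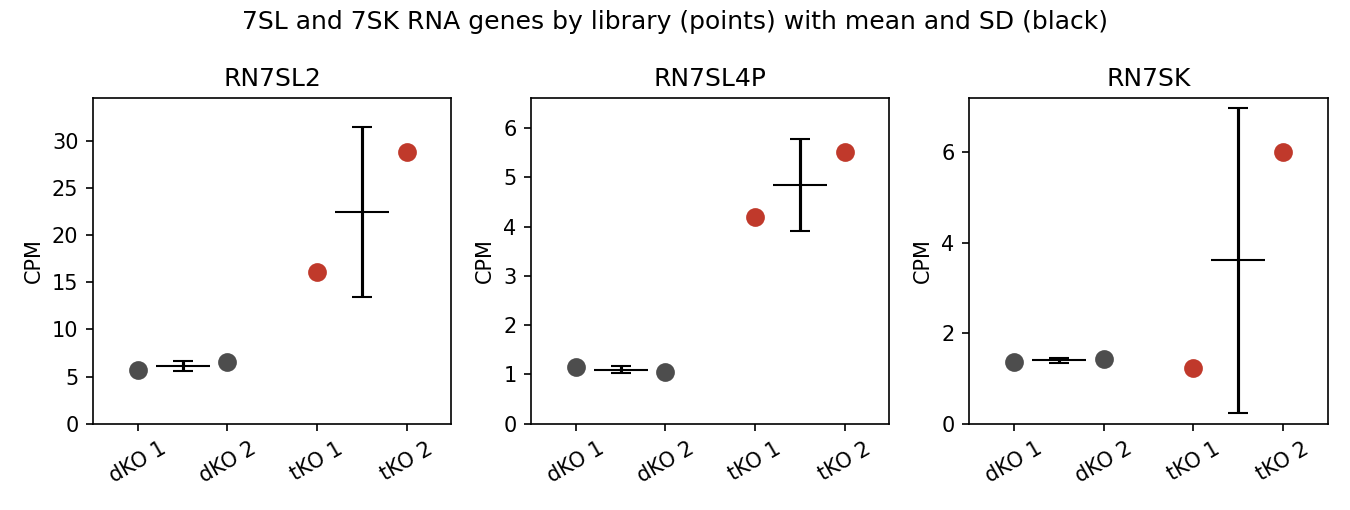
CPM after TMM scaling (vertical axis, from 0, a different range in each panel) of RN7SL2, RN7SL4P and RN7SK in the 4 libraries, with dKO points in grey, tKO points in red, and black bars for the group mean ± SD (n = 2). For RN7SL2 and RN7SL4P both red points lie above both grey ones, whereas for RN7SK tKO 1, at 1.23 CPM, lies below both.

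**Figure D3:**
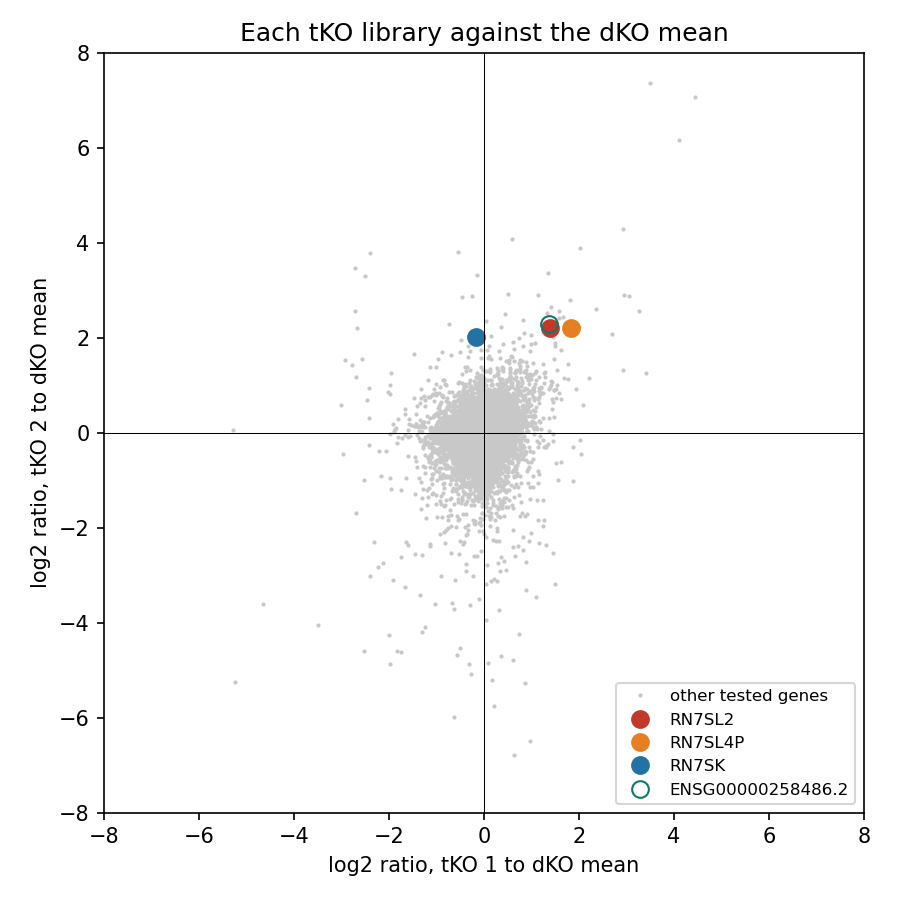
Log2 ratio to the dKO mean in tKO 1 (horizontal axis) and tKO 2 (vertical axis) for the 15136 tested genes (grey points), with RN7SL2, RN7SL4P, RN7SK and the identifier ENSG00000258486.2 marked. Both axes share the dKO mean. RN7SL2 and RN7SL4P lie to the upper right (1.38 and 2.22, 1.83 and 2.21), and RN7SK lies near 0 on the horizontal axis (-0.17) and at 2.01 on the vertical one.

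The strand columns gave the same picture. Reads on the strand opposite to the gene were 0 for RN7SL2 and RN7SK and 1, in dKO 2, for RN7SL4P, against 949, 168 and 197 reads on the gene's own strand. For RN7SL4P this also separates the reads from those of ANKRD28, the ankyrin repeat gene that contains it on the other strand. ANKRD28 had 1595, 1797, 1438 and 587 counts in dKO 1, dKO 2, tKO 1 and tKO 2, a log2 ratio to the dKO mean of -0.07 in tKO 1 and -1.35 in tKO 2. In tKO 2, RN7SL4P was thus higher and its host gene lower than in the dKO libraries.

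Levels of different genes were compared per kilobase of gene, as CPM per kb. RN7SL2 stood first in each library, at 19.3, 21.9, 54.2 and 96.9 CPM per kb in dKO 1, dKO 2, tKO 1 and tKO 2. RN7SK followed in the dKO libraries at 4.12 and 4.33 CPM per kb, beside 3.90 and 3.56 for RN7SL4P. In tKO 1 RN7SL4P, at 14.3 CPM per kb, exceeded RN7SK at 3.72, and in tKO 2 both were close, at 18.7 and 18.1 CPM per kb. The dKO means of RN7SK and RN7SL4P were 4.23 ± 0.149 and 3.73 ± 0.236 CPM per kb (SD, n = 2), and those of tKO were 10.9 ± 10.2 and 16.5 ± 3.17, so in tKO they did not differ beyond their spread. Since the genes differ in the share of unique windows, this order is that of countable reads.

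The share of RN7SL4P in the counts of RN7SL4P plus RN7SL2 compares the genes within each library and so does not depend on depth. It was 16.7% of 126 counts in dKO 1 (Wilson 95% interval 11.2 to 24.1), 13.9% of 137 in dKO 2 (9.06 to 20.6), 20.7% of 329 in tKO 1 (16.6 to 25.4) and 16.1% of 554 in tKO 2 (13.2 to 19.4). The means were 15.3% ± 1.98 in dKO and 18.4% ± 3.26 in tKO (SD, n = 2 each). The difference of 3.10 percentage points did not exceed the spread (2-sided exact permutation test, p = 0.667), in a design whose smallest p is 0.333. The 4 intervals overlapped, so a change in this share was not detectable at this depth.

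The share of RN7SK in the counts of RN7SK plus RN7SL2 set tKO 1 apart. It was 19.2% in dKO 1 (13.4 to 26.8), 18.1% in dKO 2 (12.6 to 25.1), 7.12% in tKO 1 (4.65 to 10.7) and 17.3% in tKO 2 (14.4 to 20.6). The tKO 2 share lay within both dKO intervals, and the tKO 1 interval lay below them. This is the library in which RN7SL2 was higher and RN7SK was not.

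The profile of RN7SL2 over the 4 libraries was compared with that of the 12801 tested genes whose mean log2-CPM was above 1, by the Euclidean distance of centred log2-CPM values. The nearest was the identifier ENSG00000258486.2 at a distance of 0.216, which has neither a symbol nor a position in the tables used here. Whether it belongs to RN7SL1, the member without a matched identifier, was not settled, so it is not counted as an unrelated gene. It had 39, 54, 108 and 208 counts in dKO 1, dKO 2, tKO 1 and tKO 2, a log2 fold change of 1.83. RN7SL4P came sixth at a distance of 0.442 and RN7SK was number 87 at 1.30.

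Of the other near profiles, PRKG2, a cGMP-dependent protein kinase, stood at a distance of 0.296, with 40 and 45 dKO counts and 117 and 232 tKO counts. PKIB, an inhibitor of protein kinase A, stood at 0.379. CLMP, an adhesion molecule, and SOX1-OT, a long non-coding RNA at the SOX1 locus, stood at 0.396 and 0.399. With 4 points per profile and genes chosen for their likeness, these distances are a description.

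Among related RNA genes, RN7SL3 and the other RN7SL pseudogenes together did not show the pattern of RN7SL2 and RN7SL4P. Of 844 such genes 150 had a count, and their sum was 222, 193, 240 and 192 counts in dKO 1, dKO 2, tKO 1 and tKO 2. This was 11.4 ± 1.04 CPM in dKO and 13.3 ± 2.05 CPM in tKO (SD, n = 2 each), and the groups overlapped. Unlike RN7SL2, these genes also had reads on the opposite strand, 95 to 109 in sum per library.

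Only 3 of the 844 passed the filter, and limma, edgeR and DESeq2 each called 0, with 0 at an unadjusted p below 0.05. RN7SL832P, annotated as a long non-coding RNA, had 13, 19, 29 and 24 counts (log2 fold change 0.83). Both its tKO values lay above both dKO values, as for 15.8% of all tested genes. RN7SL737P had 24, 16, 16 and 10 counts (-0.41). The RN7SK pseudogenes summed to 26, 41, 30 and 45 counts over 28 genes with a count of 291. Their tKO 2 sum was the highest, as for RN7SK itself, but was 2.79 CPM against 2.26 CPM in dKO 2. The only one to pass the filter, RN7SKP173, had 3, 9, 3 and 9 counts.

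Other RNAs of RNA polymerase III were nearly absent from these libraries. Of 17 listed genes (Y RNAs, vault RNAs, U6 RNAs and the like) 15 were matched, RMRP and RPPH1 were not, and 8 had counts, with sums of 11, 11, 5 and 9 in dKO 1, dKO 2, tKO 1 and tKO 2. None passed the filter. RN7SL2 alone had 105 to 465 counts, so a difference like that of RN7SL2 was not measurable for these RNAs at this depth.

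Short RNAs of the RNA polymerase II spliceosomal group and U7, which lack a poly(A) tail as well, summed to 11, 10, 6 and 13 counts over 13 genes. The genes for small Cajal body and nucleolar RNAs, most of which are cut from introns, gave a group with more counts. Some of those tested, such as SNORA66 and SNORD104, are shorter than the read length. Whether their reads came from the short RNAs or from the longer transcripts that contain them was not tested. The group is therefore no check on short RNAs without a poly(A) tail. Of 837 genes 192 had a count, and they summed to 57.3, 52.3, 55.5 and 57.4 CPM in dKO 1, dKO 2, tKO 1 and tKO 2. The means were 54.8 ± 3.50 CPM in dKO and 56.4 ± 1.32 CPM in tKO (SD, n = 2 each), and the groups overlapped. Of 33 tested, 16 had a positive and 17 a negative log2 fold change, with a median of -0.02, beside -0.00137 over all tested genes. None was called by limma, and 2 had an unadjusted p below 0.05 by limma, 2 by edgeR and 0 by DESeq2. Over all tested genes, 1.4% had such a limma p with a higher and 2.15% with a lower tKO level. The smallest limma p in each direction belonged to SNORD15B, with 7, 4, 16 and 12 counts (log2 fold change 1.25), and to SNORA45 (-0.51).

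**Figure D4:**
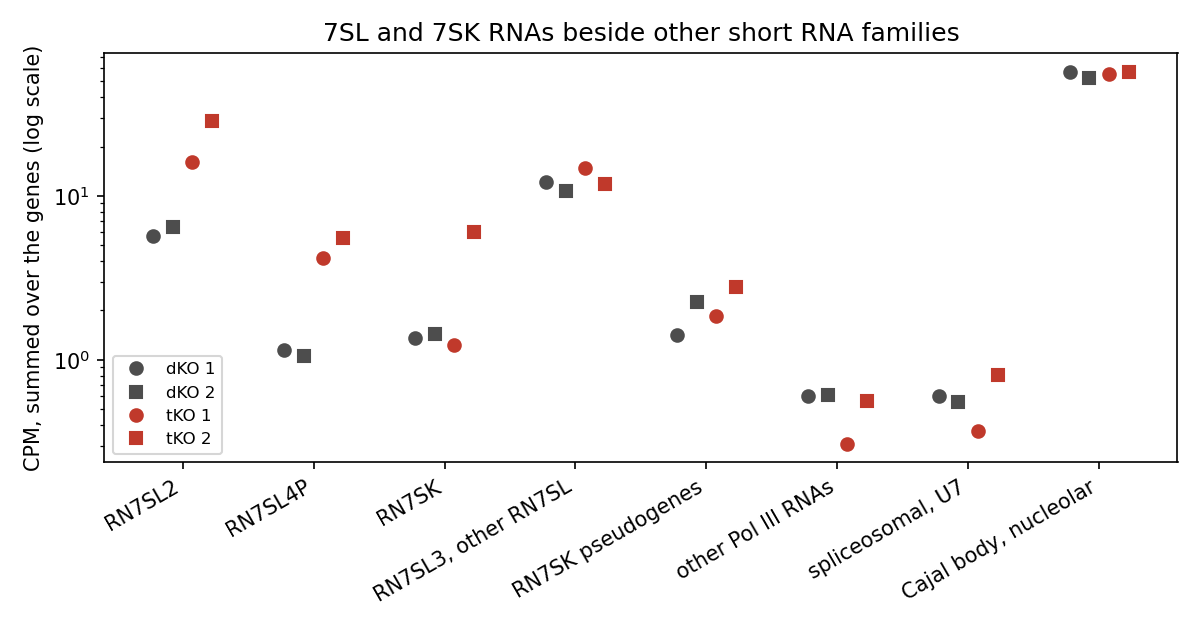
CPM after TMM scaling (vertical axis, log scale) of RN7SL2, RN7SL4P and RN7SK and of summed families of short RNAs in dKO 1 and dKO 2 (grey) and tKO 1 and tKO 2 (red). The red points stand clear above the grey ones for RN7SL2 and RN7SL4P. The Cajal body and nucleolar RNA genes lie between 52.3 and 57.4 CPM in all 4 libraries, and whether their reads came from the short RNAs was not tested.

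No change of similar size was measured for the proteins that work with 7SL RNA. All 8 genes for the signal recognition particle proteins and its receptor were tested, and limma called none, beside 0.0132% of all tested genes. At that share, 0 called genes in a list this short is no result about the list. Of the 8 genes, 5 had a positive and 3 a negative log2 fold change, beside 7523 and 7613 of all tested genes. The median of the 8 was 0.04, with a range of -0.20 (SRP9) to 0.16 (SRP19), beside a median of -0.00137 over all tested genes. The smallest adjusted p among them was 0.996. SRPRB, a subunit of the receptor, had 0.12 (SE 0.11), and SRP9, which binds the Alu domain of 7SL, had -0.20 (SE 0.17). None had an unadjusted p below 0.05 by limma, edgeR or DESeq2. Such a limma p was held by 1.4% (higher in tKO) and 2.15% (lower in tKO) of all tested genes.

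For the proteins of the 7SK particle the values were also small. Of 7 genes tested limma called none, beside 0.0132% of all tested genes. As above, 0 at that share is no result about the list. Among the 7, 5 had a positive and 2 a negative log2 fold change, with a median of 0.13 and a range of -0.10 (HEXIM1) to 0.15 (MEPCE). LARP7, which binds the 3′ end of 7SK, had a log2 fold change of 0.13, and CCNT1, the cyclin of P-TEFb, had -0.06. The smallest adjusted p was 0.996, and 0 had an unadjusted p below 0.05 by limma, edgeR or DESeq2.

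The 31 genes for RNA polymerase III and its factors were all tested and none was called by limma, beside 0.0132% of all tested genes. Of the 31, 22 had a positive and 9 a negative log2 fold change, beside 7523 and 7613 of all tested genes. The median of the 31 was 0.06, with a range of -0.24 (POLR3GL) to 0.19 (CRCP). SNAPC3, a subunit of the complex that recognizes 7SK-type promoters, had -0.13. The smallest adjusted p was 0.996, and 0 had an unadjusted p below 0.05 by limma, edgeR or DESeq2. The plot of partner genes sets these small values beside those of RN7SL2 and RN7SL4P, which were chosen for higher tKO counts.

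**Figure D5:**
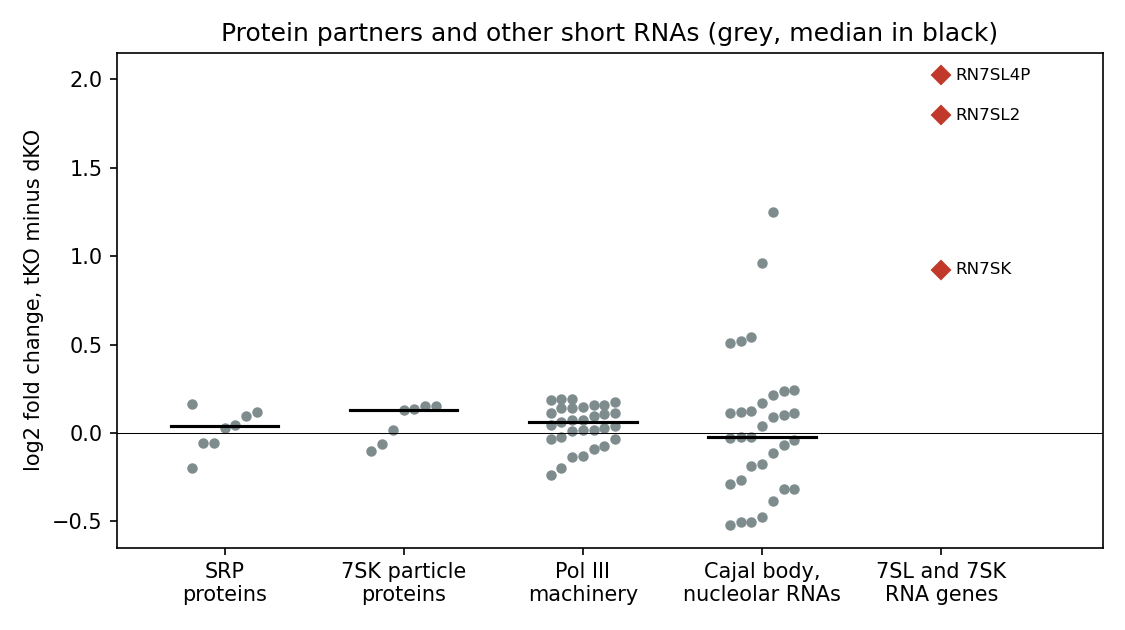
Log2 fold change of tKO against dKO (vertical axis) for each tested gene (grey points, black line for the median) of the signal recognition particle proteins, the 7SK particle proteins, the RNA polymerase III machinery and the Cajal body and nucleolar RNAs, with RN7SL4P, RN7SL2 and RN7SK (red diamonds). The protein genes lie between -0.24 and 0.19, and the 3 members at 0.92 to 2.02. RN7SL genes were chosen for higher tKO counts, and the value of RN7SK rests on tKO 2 alone. Their place above the protein genes is therefore no test. The Cajal body and nucleolar RNAs range from -0.52 to 1.25, so their highest value exceeds that of RN7SK (0.92).

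The genes beside the members were examined for changes that extend past them. For RN7SL2 the nearest tested genes were NEMF, which ends 9732 bases away, and ARF6 at 30230 bases, with log2 fold changes of 0.04 and 0.02. For RN7SK they were GSTA4, 316 bases away on the minus strand, and CILK1 at 5329 bases, with -0.11 and -0.29. Beside RN7SL4P, BTD had -0.50 and the pseudogene IMPDH1P8 -0.26. RN7SL5P, without counts, lies within PTPRD, which had 0.01. The nearest tested gene that does not overlap RN7SL5P was PTPRD-AS1, 577288 bases from it and also within the span of PTPRD, with -0.02. None of these was called by limma, with adjusted p-values of 0.996 to 0.997.

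The surroundings of RN7SL4P were lower in tKO 2. The tested genes within 5 Mb of it with a mean log2-CPM above 1, members left out, numbered 44. Their median log2 ratio to the dKO mean was 0.02 in tKO 1 and -0.89 in tKO 2, or 54.1% of the dKO level. RN7SL4P was higher in that same library. Around RN7SL2 the medians over 47 genes kept by the same rule were 0.03 and -0.03, and around RN7SK, over 24 such genes, -0.07 and -0.08. Whether this regional difference in tKO 2 bears on RN7SL4P was not tested.

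RNA polymerase III stops at a run of T, so the bases after each gene were searched for TTTT on the gene's strand. It was present within the next 20 bases of RN7SL2, of RN7SL3 and of the unannotated copy on chromosome 14. It was not found there for RN7SL4P or RN7SL5P, and of 847 genes named RN7SL, 73 (8.62%) held it in this window. RN7SK as annotated ends in TTT and the next base is T, so a run of T spans its end, which a search after the end misses. These are matches of letters and not tested sites.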

How the data were processed

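Per the labels and the methods of the study, stranded poly(A)-selected libraries had been trimmed with cutadapt (1.12) through Trim Galore (0.4.4), cleared of ribosomal RNA reads with bowtie (1.2) and mapped to GRCh37 with STAR (2.5.2b), with multimapping reads kept. Values as deposited were raw counts of uniquely mapped reads per GENCODE gene, with no normalisation and no pooling by the authors, so reads that matched several copies of a gene family were counted for none. The strand column that held most gene reads was used; the opposite one took 4.01% to 4.24%.

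Symbols were matched on Ensembl identifiers (75.3% of 57820 genes). RN7SL1 had no match, so RN7SL2 alone served as the template for likeness, and the share planned for RN7SL1 was replaced by that of RN7SL4P, chosen after seeing the data. The nearest 5 profiles, the tested gene on either side of each member, and the smallest p in each direction per list were named. Some sequences and 1 gene that this rule names are not reported here. Members and lists were chosen with earlier results of these data known.

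TMM log2-CPM values (edgeR 4.0.16, prior count 2) of genes above 0.5 CPM in at least 2 libraries were fitted with limma (3.58.1, R 4.3.3), with a mean-variance trend and Benjamini-Hochberg adjustment; recovery was checked on simulated counts. Copies and exact matches were sought in GRCh37 with BLAST (2.17.0) and a direct scan. P-values measure the spread between these 4 libraries. Alternatives were edgeR's quasi-likelihood test, DESeq2 (1.42.0), voom, other scaling, filters, prior counts and strand, a replicate block, and each library left out.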

Additional observations from a re-analysis of the deposited data

How the results depend on the processing

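RN7SL2 and RN7SL4P kept a higher tKO level under each alternative run. The log2 fold change of RN7SL2 was 1.79 to 1.87 with all 4 libraries, and 1.38 to 2.22 with 1 library left out. That of RN7SL4P was 1.98 to 2.14, and 1.83 to 2.22 with 1 library left out. RN7SL genes were chosen for higher counts in both tKO libraries, so these runs are no check of the direction. RN7SK rested on tKO 2. Its log2 fold change was 0.915 to 1.37 over the alternatives that kept all 4 libraries, 2.02 without tKO 1 and -0.17 without tKO 2, and with 1 library left out it ranged from -0.17 to 2.02. The number of genes called over all tested genes was 2, and became 1 with edgeR, 25 with DESeq2, 0 without the filter, 1 with unstranded counts and 13 with the replicate block. It ranged from 0 to 480 with 1 library left out: 0 without dKO 1 or dKO 2, 480 without tKO 1 and 175 without tKO 2, where the lone library is assumed to vary like the other group. The lists of protein partners and of short RNAs had 0 called genes in each setting that kept all 4 libraries. Over all tested genes only 0 was called without the filter and 1 with edgeR or unstranded counts. There 0 in a list was fixed or nearly so, and it is no check of the lists. Same-numbered libraries deviated together with a correlation of 0.0581, so the numbers were not taken as pairs. In this balanced design the replicate block cannot move a fitted fold change, so the members' values under it are no check. The difference in the share of RN7SL4P was 3.10 points, 2.79 with unstranded counts, and 0.797 to 5.40 with 1 library left out. The share planned for RN7SL1 was not run. The cause of these changes was not tested. With 2 libraries per group and 168 to 949 counts per member in all, differences below the spread between libraries could not be resolved.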
